A study of Mus musculus with 7 samples.

Results

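The stretch of mouse chromosome 6 around Thsd7a, from position 10000000 up to but not including 14800000 (mm9), held 109 of the 137595 binding events listed for FRA2, JUND and SOX2. They were 60 of 64579 FRA2 events, 40 of 46583 JUND events and 9 of 26433 SOX2 events, taken by position alone. The stretch itself was chosen by the FRA2 and JUND reads of both lines, as one with a strong shift towards Q111. Differences between the lines inside it are therefore given as a description, with no test. Binding had been mapped by chromatin immunoprecipitation and sequencing in STHdhQ7 and STHdhQ111 cells, immortalised lines derived from the striatum of mouse embryos at day 14 (129SvEv/CD1 background). The Q7 line has the genotype HdhQ7/Q7, in which both alleles of the huntingtin gene encode a short run of glutamines. In the Q111 line, HdhQ111/Q111, both alleles encode a long run, as found in Huntington's disease. All cells had fewer than 15 passages, grew at 33 °C and were moved to 39 °C for 2 days to stop division. FRA2 and JUND were mapped in both lines and SOX2 in Q7, and an IgG antibody served in both lines. Every group is 1 sample in which replicates 1 and 2 were pooled, and each genotype is represented by 1 cell line. No spread between replicates can be given, and every difference below lies between 2 pooled libraries.

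FRA2 (the product of Fosl2) and JUND belong to the Fos and Jun families, whose members pair to form the transcription factor AP-1. AP-1 dimers recognise the palindrome TGANTCA and often act at enhancers far from promoters. SOX2 is a high-mobility-group factor of neural progenitors. Thsd7a encodes a membrane-associated glycoprotein with thrombospondin type 1 repeats, known from endothelial cells and kidney podocytes.

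In the RefSeq gene order (GRCm38.p6), the protein-coding genes before Thsd7a are Nxph1, Ndufa4 and Phf14, and those after it are Tmem106b, Vwde and Gm725. Nxph1 encodes a secreted ligand of neurexins, Ndufa4 a mitochondrial respiratory chain subunit, Phf14 a nuclear PHD finger protein and Tmem106b a lysosomal membrane protein. Events are placed on mm9 and the gene table on GRCm38.p6, so no event was assigned to a gene body, an exon or a promoter. The Thsd7a promoter is printed to show the start of the gene for which the stretch is named. It runs from 250 bases before to 50 bases after the RefSeq start, chr6:12749204-12749503 of GRCm38.p6, minus strand, 5′ to 3′, and capitals would mark TGANTCA.
Thsd7a: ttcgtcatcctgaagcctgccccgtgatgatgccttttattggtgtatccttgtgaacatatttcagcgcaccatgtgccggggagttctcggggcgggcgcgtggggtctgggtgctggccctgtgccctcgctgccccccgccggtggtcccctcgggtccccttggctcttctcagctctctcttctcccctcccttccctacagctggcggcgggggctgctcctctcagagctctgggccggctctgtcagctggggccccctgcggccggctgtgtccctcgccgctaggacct
This window is 66.7% G and C and holds no TGANTCA on either strand. Among the 8 RefSeq promoters of Thsd7a and its 6 neighbours, 0 hold it, and it occurs in 7.81% of the 32851 mouse promoters in the same table.

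After scaling, FRA2 reads were higher in Q111 at 57 of the 60 FRA2 events of the stretch, against 32315 of 64579 over all events. JUND reads were higher in Q111 at 38 of 40, against 21108 of 46583 over all events. A difference of at least 2-fold towards Q111 was reached by 45 FRA2 events (75%) and by 32 JUND events (80%), against 24.2% of all FRA2 events and 18.7% of all JUND events. At least 4-fold was reached by 32 FRA2 and 26 JUND events, against 9.76% and 7.42% of all events. In the other direction, 1 FRA2 event and 0 JUND events were at least 2-fold higher in Q7, where all events gave 22.6% and 25%. None of either protein reached 4-fold towards Q7, against 7.99% of all FRA2 and 8.8% of all JUND events. The median log2 fold (Q111 over Q7) was 2.11 for FRA2 and 2.43 for JUND, while the full tables had medians of 0.00 (FRA2) and -0.13 (JUND). Folds were computed with 0.5 reads added and scaled to the events marked present in both lines.

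The 60 FRA2 events held 940 reads in Q7 and 3455 in Q111. The scaled ratio of these sums was 3.56 (95% Clopper-Pearson interval 3.31 to 3.83). The 40 JUND events held 396.2 reads in Q7 and 1811.4 in Q111, a ratio of 4.35 (3.90 to 4.86). All such intervals cover counting error only, since PCR reads are not independent molecules. Reads of a single FRA2 event ran from 0.4 to 120 in Q7, with a median of 9.65, and from 9 to 264.9 in Q111, with a median of 36. For JUND the range was 1 to 33 in Q7 (median 6.1) and 15 to 178.3 in Q111 (median 32). The read ranges of the lines overlap, because weak Q111 events hold fewer reads than the strongest Q7 events. In Q7, 51 of 60 FRA2 events and 32 of 40 JUND events had more reads than the scaled control at the same place. Over all events these were 62852 of 64579 for FRA2 and 45356 of 46583 for JUND. At the rest of the events in the stretch, no signal above control was detectable in Q7 at this depth. In Q111 all 60 FRA2 and all 40 JUND events exceeded their control, against 61355 of 64579 and 43244 of 46583 over all events. Of those in the stretch, 58 FRA2 and 38 JUND events were marked present in Q111. That mark went with a q-value against control, so listing nearly fixed the Q111 count.

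**Figure D1:**
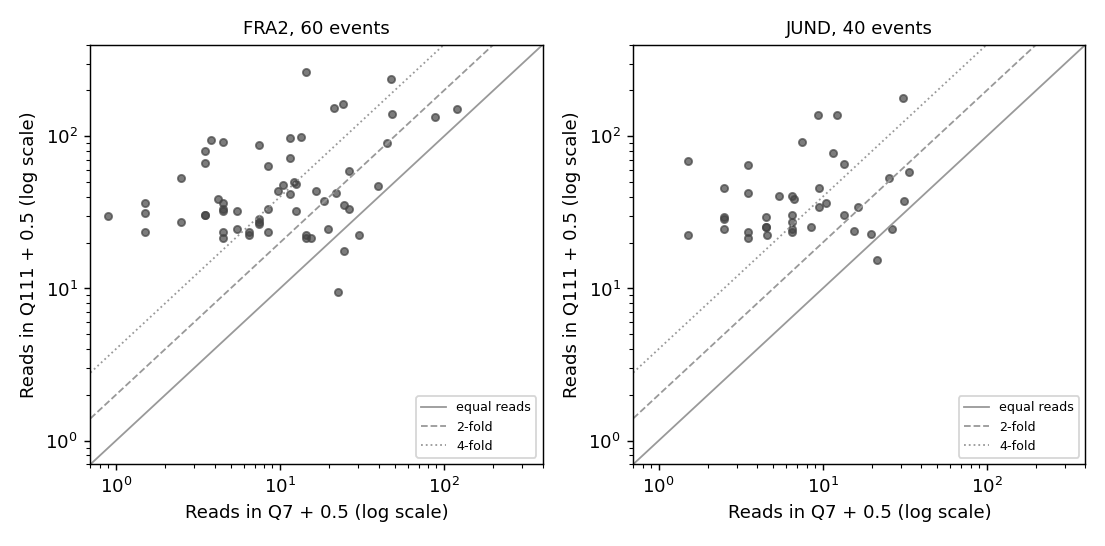
Reads in Q7 (x axis) against reads in Q111 (y axis) at the 60 FRA2 and 40 JUND events of the stretch, with 0.5 reads added and both axes logarithmic. Each point is an event of 1 pooled library per line; 45 FRA2 and 32 JUND events lie at least 2-fold towards Q111 after scaling, and the lines are drawn for unscaled reads.

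Each event also carries the authors' present mark for each line. Each listed event was marked in at least 1 line. All marked events had a q-value of 0.01 or lower against control, but events of few reads with such a q-value could lack the mark, as 5 FRA2 events of the stretch did in Q7. Of the 60 FRA2 events, 45 were marked in Q111 alone (75%, against 25.7% of all FRA2 events). Another 13 were marked in both lines (21.7%, against 47.6%) and 2 in Q7 alone (3.3%, against 26.7%). Of the 40 JUND events, 34 were marked in Q111 alone (85%, against 24.4% of all JUND events). A further 4 were marked in both lines (10%, against 37.1%) and 2 in Q7 alone (5%, against 38.4%). These marks are made from the same reads as the folds and are no separate evidence. Events marked in Q7 had a median log2 fold of 0.56 over 15 FRA2 events and 0.46 over 6 JUND events, and those not marked in Q7 one of 2.52 and 2.50.

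The shift was uneven along the stretch. In the first 0.5 Mb bin, from 10 to 10.5 Mb, 2 FRA2 events held 36 reads in Q7 and 30 in Q111, with 10.8 and 3.1 control reads, and no JUND event was listed. From 10.5 to 12 Mb neither protein had a listed event, and the gap between FRA2 positions 10419138 and 12293783 spanned 1.87 Mb. A single SOX2 event lay within that gap.

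Between 12 and 13.5 Mb the events were dense and nearly all shifted. The bin from 12 to 12.5 Mb had 8 FRA2 events with 42 reads in Q7 and 591 in Q111, all at least 4-fold higher in Q111, with a median log2 fold of 3.71. Its 6 JUND events held 40 and 334 reads and had a median log2 fold of 2.60. The next bin, from 12.5 to 13 Mb, had 20 FRA2 events with 195 Q7 reads and 1135 Q111 reads, and 15 JUND events with 105 and 690. Their median log2 folds were 2.81 and 3.45, and 18 FRA2 and 14 JUND events passed 2-fold. From 13 to 13.5 Mb there were 12 FRA2 events with 132 Q7 reads and 799 Q111 reads, and 10 JUND events with 77 and 524, all at least 2-fold higher in Q111, at medians of 2.44 and 2.45. Over these 3 bins, 38 of 40 FRA2 events and 30 of 31 JUND events passed 2-fold. An unbroken series of 26 neighbouring FRA2 events past 2-fold ran from position 12293783 to 12944560, and one of 20 JUND events from 12295178 to 12944848.

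Beyond 13.5 Mb the difference was smaller. From 13.5 to 14 Mb, 14 FRA2 events held 442 reads in Q7 and 775 in Q111 at a median log2 fold of 0.78, and 6 of them passed 2-fold. The 7 JUND events of this bin held 145.2 and 223.4 reads at a median of 0.53, with 1 past 2-fold. From 14 to 14.5 Mb, 4 FRA2 events held 93 and 125 reads and 2 JUND events 29 and 40, with medians of 0.25 and 0.48. The last bin, shortened to 0.3 Mb by the end of the stretch, had no event. Taken from 13.5 Mb to the end, 7 of 18 FRA2 and 2 of 9 JUND events passed 2-fold. Events of the central 1.5 Mb had a median of 6 reads in Q7 for each protein, and those after 13.5 Mb a median of 21.5 (FRA2) and 19.3 (JUND). In Q111 the medians were 41.3 and 36 in the centre and 33 and 25 after it.

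**Figure D2:**
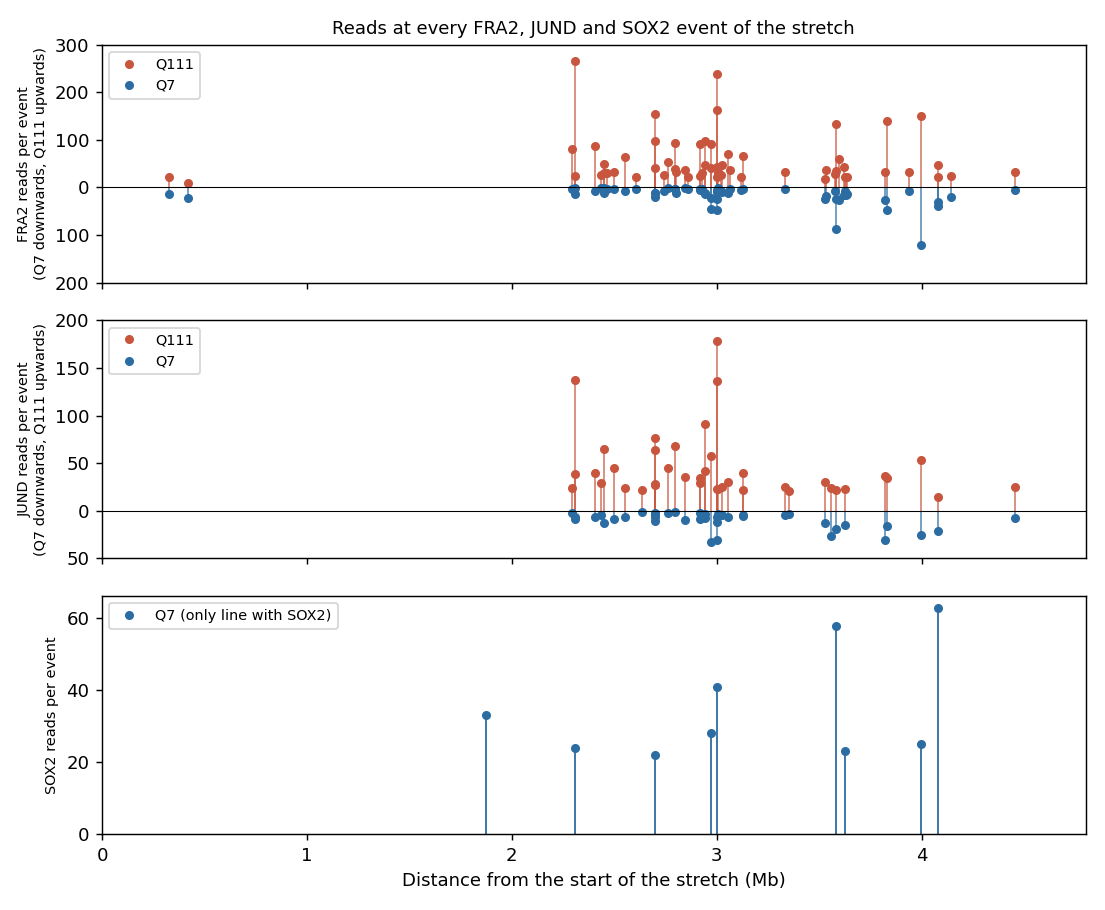
Reads at each event (y axis) against its distance from the start of the stretch in Mb (x axis), for FRA2, JUND and SOX2. Q111 reads point up and Q7 reads down in the upper panels; FRA2 and JUND events cluster after the 1.87 Mb gap, where Q7 stems are short and the tallest Q111 stem reaches 264.9 FRA2 reads.

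The FRA2 event with the highest Q111 value was at position 12309001, where 264.9 reads in Q111 stood against 14 in Q7 (17.7-fold, 10.7 to 34.0). JUND, 11 bp away at 12308990, had 137.7 reads in Q111 and 8.8 in Q7 (14.1-fold, 7.46 to 32.6). Both proteins were thus far higher in Q111 at this site, with at most 2.4 control reads in either line. The greatest number of reads over both lines was at FRA2 position 13002720, where Q7 had 46.9 and Q111 had 238.8, a 4.89-fold difference (3.59 to 6.89). Its JUND partner at 13002749 had 30.3 and 178.3 reads, a 5.52-fold difference (3.82 to 8.61). A neighbouring pair of positions, 13002542 for FRA2 and 13002514 for JUND, had 23.8 and 11.7 reads in Q7 and 162.8 and 136.7 in Q111. These folds were 6.51 (4.27 to 10.6) for FRA2 and 10.7 (6.02 to 21.5) for JUND. Reads can be divided between such adjacent positions by the caller, so they are not independent sites.

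Several events had almost no Q7 reads. At 12795739 FRA2 had 93.6 reads in Q111 and 3.3 in Q7 (24.0-fold, 10.1 to 149.8). JUND at 12795748 had 68 and 1, a 43.4-fold ratio (11.2 to 2592). The wide upper limits come from the few Q7 reads. For FRA2 at 12293783 there were 80 Q111 reads and 3 Q7 reads (22.3-fold, 8.53 to 127.9), and at 12918179 there were 91 and 4 (19.7-fold, 8.32 to 82.6). Position 13130228 had 3 and 66 FRA2 reads (18.4-fold, 6.98 to 106.0). At 12450306 the Q7 value of 0.4 rounds to 0 against 29.4 in Q111, at least 9.49-fold higher against a floor of 3 reads per library. Its neighbour at 12450086, had 11.6 FRA2 reads in Q7 and 49.6 in Q111, so Q7 reads were present close by.

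For JUND, the other events farthest towards Q111 were of the same kind. At 12700018 there were 3 Q7 reads and 63.8 Q111 reads (17.5-fold, 6.64 to 101.0). JUND at 12762739 had 2 and 45 reads (17.3-fold, 5.59 to 182.1), and at 12944057 it had 7 and 91 (11.6-fold, 5.76 to 31.6). All 3 lie in the central part of the stretch. Among the JUND events with the most reads, 12698596 had 11 and 77 (6.41-fold) and 12450066 had 13 and 65 (4.62-fold). FRA2 beside the first of these, at 12698600, had 21 and 154 reads (6.96-fold, 4.49 to 11.8).

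Not all strong sites were shifted that far. FRA2 at 13994882 had 120 reads in Q7, the highest Q7 value of the stretch, and 150 in Q111 (1.21-fold, 0.95 to 1.55). JUND at 13994901 had 25 and 53 reads, just under 2-fold (1.23 to 3.39). FRA2 at 13582710 had 87.9 and 133.9 reads (1.47-fold, 1.12 to 1.95), and its JUND partner at 13582764 had 19.3 and 22.3. The FRA2 event at 13833116 had 48 and 140 (2.81-fold, 2.02 to 4.01). These 3 FRA2 positions lie after 13.5 Mb. Within the central part, the FRA2 events that did not pass 2-fold were 12971723, with 44.6 and 90.4 reads (1.95-fold, 1.34 to 2.84), and its neighbour 12971927, with 21.4 and 41.6. JUND at 12971750, the only JUND event there below the limit, had 33 and 58 reads (1.66-fold, 1.07 to 2.65). The site thus interrupts the unbroken series of both proteins. Position 12971927 is outside the rule for named events and was named because of this count.

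The only FRA2 event at least 2-fold higher in Q7 was 10419138, near the start of the stretch, with 22 reads in Q7 and 9 in Q111. Its fold towards Q7 was 2.45, with an interval of 1.12 to 6.23, and its control values were 6 and 3.1. The few reads leave its size poorly determined. Other FRA2 events with a log2 fold under 0 were 13529476, with 24 and 17 reads, and 14080946, with 29.9 and 22.1. For JUND these were 13558018, with 26 and 24 reads, and 14080622, with 21 and 15. These 4 events are likewise outside the naming rule.

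A FRA2 and a JUND event counted as a pair if no other event of the partner protein was closer to either and at most 100 bp separated them. The stretch held 30 such pairs, 50% of its FRA2 events and 75% of its JUND events, against 54.5% and 75.5% over all events. The median distance within a pair was 19 bp, against 14 bp over all pairs. Both proteins were at least 2-fold higher in Q111 at 24 of the 30 pairs, where 15.9% of all pairs had this. FRA2 alone passed 2-fold at 1 pair and JUND alone at 0, and neither did at 5. The FRA2 fold was the larger at 19 of 30 pairs, against 20202 of 35176 over all pairs. The JUND log2 fold minus the FRA2 log2 fold had a median of -0.29 in the stretch, against -0.11 over all pairs. Its values in the stretch ran from -2.83 to 1.64. The most negative value came from FRA2 at 12843393 (1 read in Q7, 36 in Q111) and JUND at 12843410 (10 and 36). Both had the same Q111 reads, and the difference lies in Q7 counts that are too small to order the proteins. This pair was named after its values were seen. JUND reads over FRA2 reads at pairs, as an unscaled log2 ratio, had a median of -0.53 in Q7 and -0.50 in Q111, against -0.79 and -0.89 over all pairs. The 30 FRA2 events without a JUND partner were weaker, with a median of 38 reads over both lines against 76.5 for the paired ones.

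**Figure D3:**
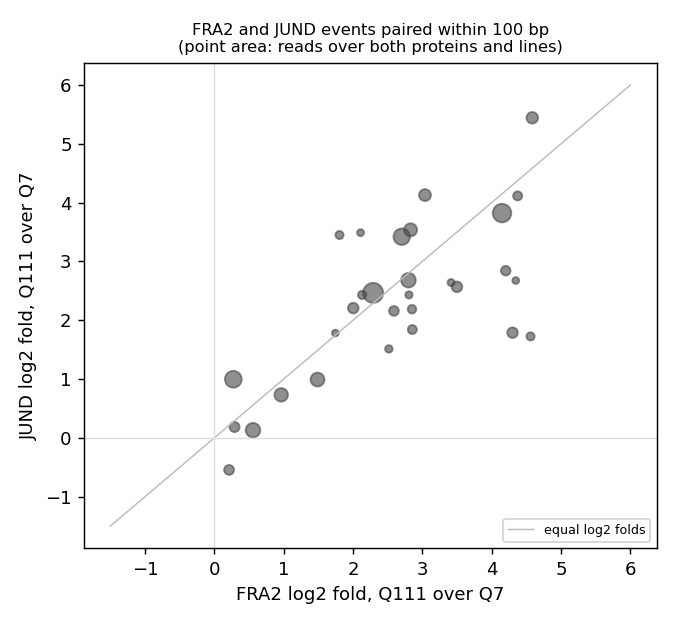
JUND log2 fold (y axis) against FRA2 log2 fold (x axis), both Q111 over Q7, at the 30 FRA2 and JUND pairs of the stretch, with point area in proportion to the reads of both proteins in both lines. Of the 30 points, 24 lie beyond 2-fold on both axes. The FRA2 fold is the larger at 19, against 20202 of 35176 over all pairs.

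Summed over the stretch, the control reads did not follow the immunoprecipitated reads. At the 60 FRA2 events the scaled control came to 184.8 reads in Q7 and 102.1 in Q111, a log2 ratio of -0.86 (Q111 over Q7), where all FRA2 events gave 0.41. At the 40 JUND events it came to 110.8 in Q7 and 94.5 in Q111, a log2 ratio of -0.23 with a counting interval of -0.65 to 0.17, where all JUND events gave 0.73. The control was thus lower in Q111 at the FRA2 events, opposite to the FRA2 reads, and at the JUND events the interval includes equal control. Marked events passed a q-value against control, and most here were marked in Q111 alone, so a low Q111 control itself favours listing. How far this listing shapes the control contrast was not tested. The mean control per FRA2 event was 3.08 in Q7 and 1.70 in Q111, against 4.30 and 5.71 over all FRA2 events. For JUND it was 2.77 and 2.36, against 4.32 and 7.19. Control values at single FRA2 events ran from 0 to 8.4 in Q7 and from 0 to 6.2 in Q111, and Q7 had the higher one at 46 of 60 events (76.7%, against 41.3% of all FRA2 events). As a consequence the total of immunoprecipitated over control reads in Q111 was 33.8 for FRA2 and 19.2 for JUND in the stretch, against 9.49 and 4.81 over all events. In Q7 it was 5.09 and 3.58, against 12.03 and 8.25. In the central part, from 12 to 13.5 Mb, control reads at FRA2 events were 116.4 in Q7 and 78.4 in Q111, and after 13.5 Mb they were 57.6 and 20.6. By central bin they were 22.8 and 9.3, then 64.8 and 39.2, and from 13 to 13.5 Mb 28.8 and 29.9. At JUND events these were 19.6 and 10.8, 46.4 and 37.9, and 16.2 and 22.7. In the bin from 13 to 13.5 Mb the control was thus nearly equal at FRA2 events and higher in Q111 at JUND events. No counting interval was computed for single bins. Paired FRA2 and JUND events lie at nearly the same positions, so their control values are not separate observations.

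**Figure D4:**
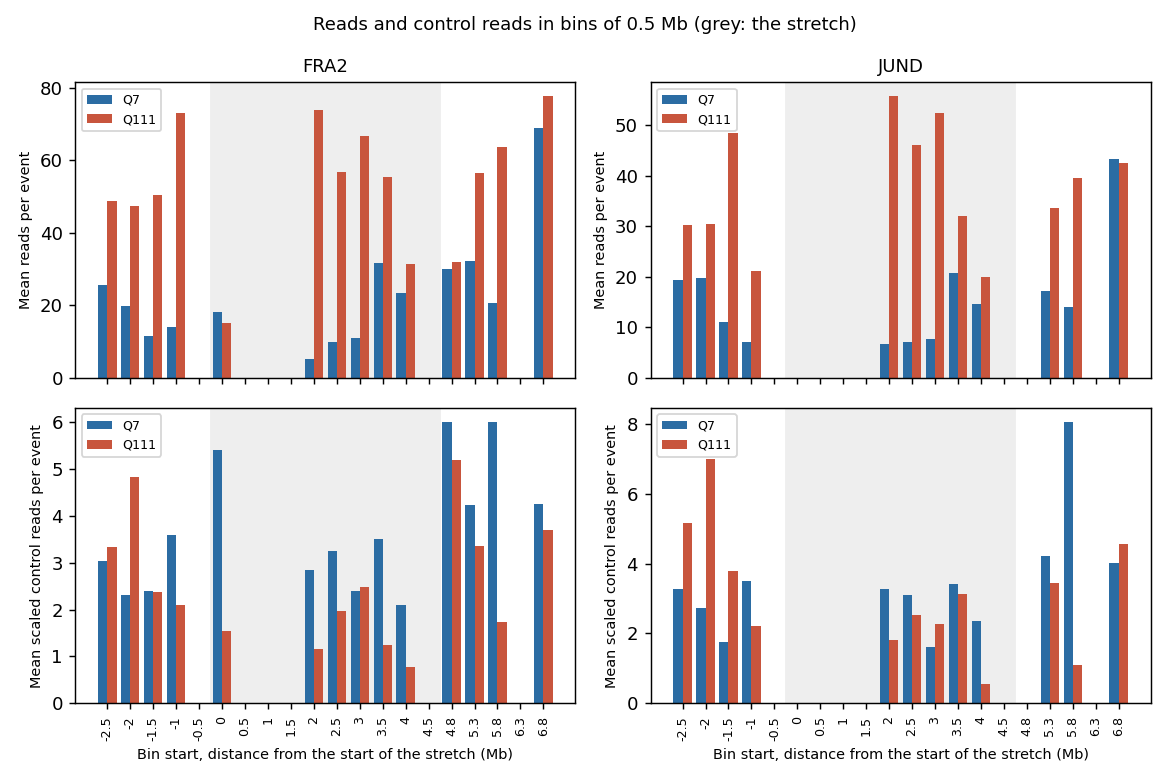
Mean reads per event (top) and mean scaled control reads per event (bottom) in bins of 0.5 Mb, for FRA2 (left) and JUND (right), with Q7 in blue and Q111 in red. The x axis gives each bin's start as distance from the start of the stretch. Grey marks the stretch (its last bin is 0.3 Mb), and empty bins have no event. Control in the central bins was lower in Q111, except from 13 to 13.5 Mb. Means there were 2.40 in Q7 and 2.49 in Q111 for FRA2, and 1.62 and 2.27 for JUND.

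SOX2 had 9 events in the stretch, all from Q7, with 22 to 63 reads and a median of 28, against a median of 33 over all SOX2 events. That is 15.0 SOX2 events per 100 FRA2 events, where the whole tables gave 40.9. SOX2 was mapped in Q7, while 45 of the 60 FRA2 events were marked in Q111 alone (75%, against 25.7% of all). The choice of the stretch thus enters this ratio, which cannot show a shortage of SOX2. SOX2 reads were not part of the choice of the stretch. At 12308874 SOX2 had 24 reads and 2.2 control reads, 127 bp from the FRA2 event with 14 reads in Q7 and 264.9 in Q111. At 12700307 it had 22 reads and 1.1 control reads, 272 bp from FRA2 position 12700035, which had 11 and 97 reads. The SOX2 event at 13002696, with 41 reads and 2.2 control reads, lay 24 bp from FRA2 position 13002720. In these 3 places SOX2 was listed in Q7 while the nearby AP-1 reads of Q7 were well below those of Q111.

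The other SOX2 events lay mostly at sites with smaller differences. At 12971796 SOX2 had 28 reads and 8.6 control reads, 73 bp from FRA2 at 12971723. The strongest SOX2 event, 14080903, with 63 reads and 1.1 control reads, was 43 bp from FRA2 at 14080946. SOX2 at 13582214 had 58 reads and 3.2 control reads, 26 bp from FRA2 at 13582188 (24.1 reads in Q7 and 35.1 in Q111). Positions 13994874, with 25 reads, and 13628077, with 23, were 8 bp from FRA2 and 71 bp from JUND. The event at 11875918, with 33 reads and 2.2 control reads, stood alone in the gap, 417865 bp from the nearest FRA2 event. Of the 9 SOX2 events, 6 had an AP-1 event at most 100 bp away (66.7%, against 69.9% of all SOX2 events). Within 1 kb, 8 of the 9 had one (88.9%, against 86.4% of all). Both shares were near those of all SOX2 events.

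Seen from the AP-1 side, 14 of the 60 FRA2 events (23.3%, against 35.7% of all) had a SOX2 event within 1 kb. For JUND these were 11 of the 40 events (27.5%, against 50.3%). The same limit holds for these shares, as most AP-1 events of the stretch were marked in Q111 alone. The FRA2 events near SOX2 had a median log2 fold of 1.39, with values from -0.47 to 4.15, and the others 2.17. Over all FRA2 events these medians were -0.50 and 0.42. For JUND the medians were 2.46 near SOX2 and 2.43 elsewhere, against -0.50 and 0.34 over all JUND events. Near SOX2 the median Q7 reads were 23.95 for FRA2 and 15.1 for JUND, and elsewhere 7 and 6. Among all events they were 53 and 36 near SOX2, and 25 and 22 elsewhere. The lower FRA2 fold and the higher Q7 reads near SOX2 are thus not particular to the stretch. SOX2 was mapped in Q7 alone, so its binding in Q111 at these sites was not analysed here.

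The shift was not limited to the stretch and was also seen before its start. The first FRA2 event inside, 10326428, had 14 (Q7) and 21 (Q111) reads, and the nearest one before the stretch, 9449142, had 14 and 73. At the far side the last FRA2 event inside, 14454268, had 5 and 32 reads, and the first one beyond, 15271483, had 30 and 32. For JUND the first and last events inside were 12295178, with 2 and 24 reads, and 14454320, with 8 and 25. Those just outside were 9449175, with 7 and 21, and 15493809, with 1 and 33. Over the 2.5 Mb before the stretch, 23 of 36 FRA2 events and 8 of 22 JUND events were at least 2-fold higher in Q111, with median log2 folds of 1.70 and 0.82. Over the 2.5 Mb after it these were 17 of 78 and 9 of 54, with medians of 0.27 and 0.07. At least 2-fold higher in Q7 were 2 FRA2 and 1 JUND events before the stretch, and 16 and 14 after it. Among all events, 24.2% (FRA2) and 18.7% (JUND) were at least 2-fold higher in Q111, and 22.6% and 25% in Q7. Pooled over 2.5 Mb, the counts after the stretch thus show no excess towards Q111. Most events there lay from 16.8 to 17.3 Mb, where 59 FRA2 and 42 JUND events had median log2 folds of -0.08 and -0.22. Nearer, from 15.3 to 15.8 Mb, 4 of 15 FRA2 and 5 of 10 JUND events passed 2-fold towards Q111. From 15.8 to 16.3 Mb these were 1 of 3 and 1 of 2. Towards Q7 they were 1 and 0, then 0 and 0. The FRA2 medians of these bins were 0.89 and 0.95. Both bins hold few events, and where the shift ends was not tested. Chromosome 6 outside the stretch had median log2 folds of 0.21 for FRA2 (3737 events) and 0.03 for JUND (2618 events).

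When the genome was divided into windows of 4.8 Mb with at least 20 events in both tables, the stretch was 1 of 487 windows and had the highest median log2 fold for both proteins, as it had been chosen to have. Its 940 FRA2 reads in Q7 were fewer than those of 485 other windows, and its 396.2 JUND reads in Q7 were the fewest of all 487, where the median window had 5956 and 2906. In Q111 its 3455 FRA2 reads and 1811.4 JUND reads exceeded those of 101 and 137 windows, against medians of 6294 and 2848. The numbers of events were low but not extreme, with 61 windows having fewer FRA2 events and 67 fewer JUND events, and 7 windows having fewer SOX2 events (median 48). The mean Q111 control per FRA2 event, 1.70, was the lowest of the 487 windows, which had a median of 5.13. That per JUND event, 2.36, was the second lowest. Control values of windows carry the limit of listing given above.

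The windows most like it in the pair of median log2 folds were on chromosome 19 from 48400000 (2.06 for FRA2 and 1.94 for JUND), chromosome 15 from 19600000 (1.47 and 1.29) and chromosome 8 from 58000000 (1.54 and 1.17). Their control log2 ratios at FRA2 events were -0.30, -0.87 and -0.13, against a median of 0.34 over the windows. In each of them the control ratio was below that median. In the same order they held 7, 13 and 30 SOX2 events, against a window median of 48. They also held 39, 82 and 91 FRA2 events, against a median of 123.

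**Figure D5:**
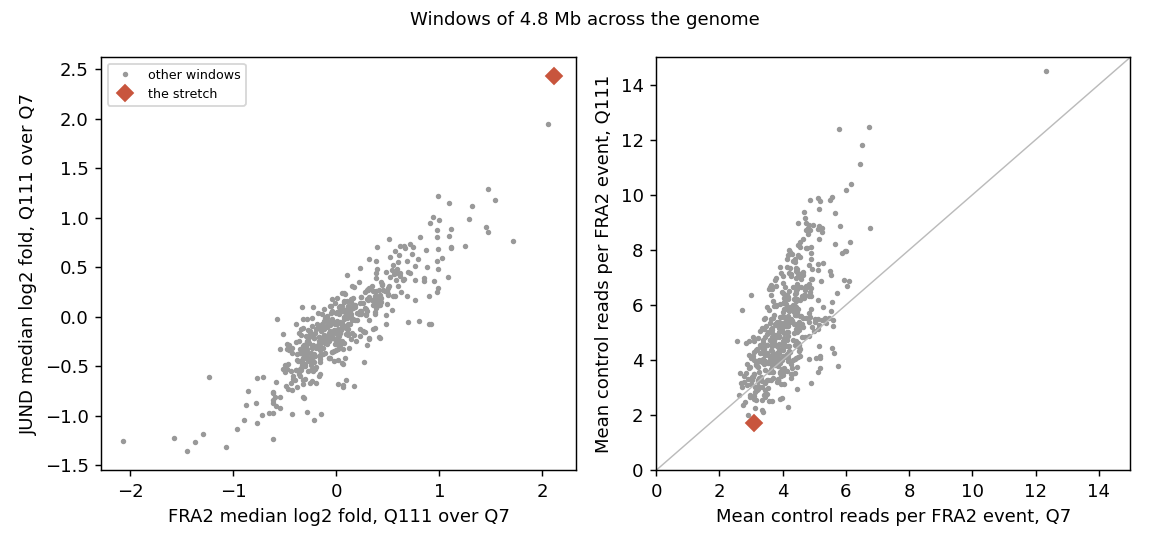
Windows of 4.8 Mb across the genome (487 points, the stretch as a red diamond): JUND against FRA2 median log2 fold (left) and mean scaled control reads per FRA2 event in Q111 against Q7 (right, with a line of equal values). The stretch lies at the upper right end of the left panel, at 2.11 and 2.43, and at the lower end of the right panel, at 3.08 and 1.70.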

How the data were processed

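Per the submitters' processing notes, reads were aligned with Bowtie 0.12.7 to mm9. The deposited tables carry the name of the GPS event caller, and its settings are not stated in the sources used. Per the file headers and deposited values, IP columns hold expected counts, reads assigned to an event in each line, not scaled. Control values are, per the file headers, a signal at the same position: control reads scaled library by library. The headers do not name the control library, and among the labelled antibodies IgG alone is a control. The deposited q-values are given as −log10, and a present mark completes the columns used; 22 further value columns were not used.

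Depth is known only as reads in events: 3340554 (FRA2, Q7), 3498922 (FRA2, Q111), 1660158 (JUND, Q7), 1609483 (JUND, Q111) and 1193914 (SOX2, Q7). Folds are Q111 over Q7 with a pseudocount of 0.5, scaled by the median log2 ratio of events marked present in both lines (0.05 for FRA2, 0.07 for JUND). All events had at least 20 reads over both lines. Intervals are 95% Clopper-Pearson intervals on rounded reads. Python 3.11.15, pandas 2.3.3 and scipy 1.17.1 were used, and the code was tested on simulated data. The stretch, its bins and the lists were chosen with earlier results of these data known. The naming rule takes, per protein, the 8 with the most reads, the 6 with intervals farthest towards Q111, those at least 2-fold higher in Q7 and those at the edges, plus the 6 pairs with the most reads and the SOX2 events. Alternatives changed scaling, pseudocount, read minimum, fold limit, q-value limit, control subtraction, merging and edges.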

Additional observations from a re-analysis of the deposited data

How the results depend on the processing

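No paired analysis was possible because replicates 1 and 2 were pooled in every sample, and no replicate could be left out. Of 74 recomputed values over 13 results, 53 stayed within the tolerance and 21 moved beyond it. The tolerance was 1.5 times for counts and the 95% interval of the reported value for the others. Counts could not reverse under this rule, and no median or log2 ratio changed sign. With a minimum of 40 reads, 26 of 37 FRA2 and 17 of 23 JUND events were at least 2-fold higher in Q111, against 20.9% and 14.4% of all. These counts are lower because fewer events remained, and 0 FRA2 events were higher in Q7, against 18.3% of all. That single FRA2 event was also lost (0) with a pseudocount of 5, a q-value of 0.0001 or lower, or a fold limit of 4. With control scaling, or control subtraction, 1 JUND event was higher in Q7, against 43.3% and 32.9% of all JUND events. Control scaling lowers every log2 fold by a constant, to medians of 1.75 (FRA2) and 1.77 (JUND) and summed log2 ratios of 1.47 and 1.46. With it, 42 and 30 events were at least 2-fold higher in Q111, against 17.9% and 10.3% of all events. The medians of all events were then -0.36 and -0.79. A pseudocount of 5 gave medians of 1.59 and 1.71. Subtracting control gave medians of 2.76 (FRA2) and 2.89 (JUND) and summed log2 ratios of 2.13 and 2.59. Without the 5 events with the most reads these were 1.97 and 1.91. Taken as the median over events, the control log2 ratio was -1.26 at FRA2 and -1.06 at JUND events. The Q7 medians of under 10 reads limit the precision of single folds.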
